A study of Mus musculus with 4 samples.

Results

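The genes described here are the oxygen-sensing core of the hypoxia pathway: the HIF subunit genes Hif1a, Epas1, Arnt and Arnt2, the HIF prolyl hydroxylase genes Egln1, Egln2 and Egln3, and Vhl. They were taken as every probe set that the platform annotation names with 1 of these 8 symbols, which gave 15 of the 22690 probe sets and 8 of the 12393 named genes, none of them shared with another gene. The cells were primary fibroblasts grown from mouse embryos at stage e14.5. The tri-CH1 cells carried a deletion of the CH1 domain in both p300 alleles and in 1 CBP allele, and were held for 6 h at 0.1% oxygen (hypoxia) or at 21% oxygen (normoxia). Wild-type cells were held for the same 6 h at 0.1% or at 21% oxygen, and all 4 cultures had 5% carbon dioxide at 37 °C and fresh medium equilibrated to their own oxygen level. Each of the 4 groups was 1 Affymetrix array, so no value has a replicate error and nothing was tested. The number of embryos behind each culture was not given in the sources used here.

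HIF is a pair of proteins, an oxygen-labile α subunit (HIF-1α from Hif1a or HIF-2α from Epas1) and a stable partner (ARNT, or ARNT2 in neural cells). In oxygenated cells the prolyl hydroxylases, enzymes that use oxygen as a substrate, modify the α subunit, and the VHL protein then marks it for destruction by the proteasome. At low oxygen the α subunit escapes and binds the DNA core sequence ACGTG or GCGTG with ARNT, and its C-terminal activation domain binds the CH1 domain of p300 and CBP. Much of the control of the α subunits is therefore on the protein, which arrays of RNA do not measure.

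A signal of 500 was reached on at least 1 array by 8 of the 15 probe sets, from 5 of the 8 genes: Hif1a, Egln1, Egln2, Egln3 and Vhl. Of the other 7 probe sets, 2 peaked between 200 and 500 and 5 stayed under 200 on every array. Just inside the limit of 500 lay a Hif1a probe set that peaked at 856 and the Vhl probe set at 887. Just outside it lay another Hif1a probe set at 425 and an Arnt probe set at 403. Signals under 200 were raised to 200 before any ratio was taken, and a gene was called higher or lower only at 2-fold or more with 500 or above on the brighter array, read from its probe set with the highest mean signal. Rose and fell below refer to such calls alone. Where the dimmer side lay under 200, a fold is given as a lower bound.

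**Figure D1:**
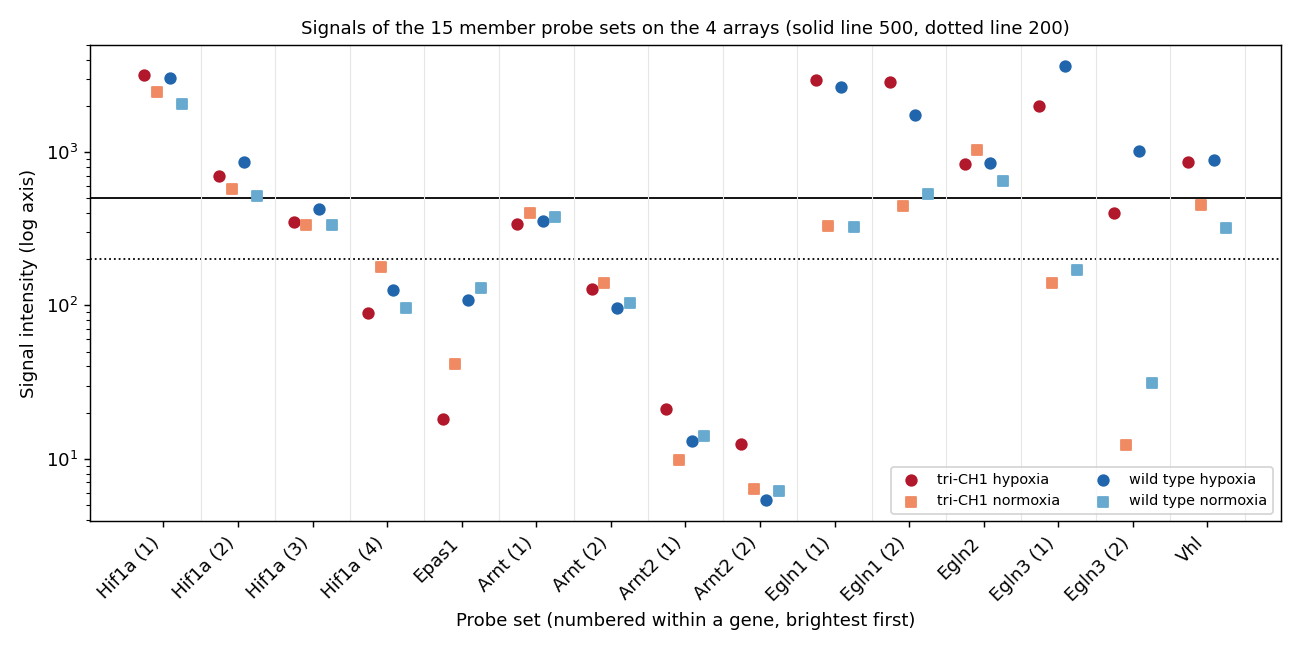
Signal intensity on a log axis (vertical) of the 15 member probe sets (horizontal), 1 point per array. Circles are hypoxia and squares normoxia. The solid line marks 500 and the dotted line 200. Egln1, Egln3 and Vhl have both circles above both squares, while all 8 points of the Arnt2 probe sets lie at 21.0 or below.

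The 4 arrays had between 6066 and 6328 probe sets at 500 or more, and 4645 of 12393 named genes reached 500 on at least 1 of them. Background multiplied by the scale factor was 393 for tri-CH1 hypoxia, 343 for tri-CH1 normoxia, 246 for wild-type hypoxia and 139 for wild-type normoxia. The array lot was shared by 3 of the arrays and differed for wild-type normoxia, so lot and group cannot be told apart in the wild-type hypoxia change or in the normoxia genotype comparison. All 11 fibroblast markers, among them collagens, Vim and Pdgfra, reached 500 on at least 1 array, with 9 or 10 of them there on each. Their summed signal was 132083 and 130739 in tri-CH1 hypoxia and normoxia, against 115643 and 119381 in wild-type hypoxia and normoxia. Single markers differed by genotype in opposite directions: Thy1 was 3.78-fold lower in tri-CH1 in hypoxia and 3.43-fold lower in normoxia, while Lum was called higher at both oxygen levels, at 2684 and 1562 in tri-CH1 hypoxia and normoxia, against 419 and 355 in wild-type hypoxia and normoxia. Col1a1 and Dcn were called higher in tri-CH1 in hypoxia, and Pdgfrb fell 2.58-fold with hypoxia in wild type. The part of these differences between the cultures in the results was not tested. Of 8 endothelial markers 1 reached 500 (Flt1), Kdr read between 302.2 and 390.5 on the 4 arrays, and the other 6 never reached 200. Of 6 blood and macrophage markers 2 reached 500 (Csf1r and Lyz2), of 7 neural markers 1 (Nes), and of 5 skeletal muscle markers none. Of 6 epithelial markers 3 reached 500 (Krt8, Krt18 and Krt19). The summed signal of all 6 was 3357 and 1382 in tri-CH1 hypoxia and normoxia and 4967 and 1057 in wild-type hypoxia and normoxia. Krt19 carried the higher sums in hypoxia. It read 2676 and 423 in tri-CH1 hypoxia and normoxia, against 3881 and 145 in wild-type hypoxia and normoxia. Krt8 fell at least 2.51-fold with hypoxia in tri-CH1, from 502 to 192, and read 332 and 398 in wild-type hypoxia and normoxia. Krt18 changed by less than 2-fold with oxygen in both genotypes. The defining markers Epcam and Cdh1 stayed at or under 36.7, and Cldn4 at or under 149. The part of these changes in the results was not tested. In such bulk RNA, fewer cells of a type and less RNA per cell cannot be told apart. The arrays were not used here to check the CH1 deletions.

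Hif1a, the gene of the ubiquitous oxygen-regulated subunit, had higher signals in hypoxia in both genotypes, but by less than 2-fold. Its brightest probe set read 3179 in tri-CH1 hypoxia, 2449 in tri-CH1 normoxia, 3023 in wild-type hypoxia and 2062 in wild-type normoxia. Both hypoxia values were above both normoxia values. The log2 change was 0.38 in tri-CH1 and 0.55 in wild type, which placed Hif1a at rank 672 of 4358 genes in tri-CH1 and rank 309 of 4125 in wild type, counted from the largest rise. A further Hif1a probe set read 696 in tri-CH1 hypoxia and 572 in tri-CH1 normoxia, and 856 in wild-type hypoxia against 517 in wild-type normoxia, for log2 changes of 0.28 and 0.73. Another read 351 and 336 in tri-CH1 hypoxia and normoxia, against 425 and 335 in wild-type hypoxia and normoxia, for log2 changes of 0.06 and 0.35. These 3 probe sets all had the smaller hypoxia change in tri-CH1, by 0.18, 0.45 and 0.28 on the log2 scale. A last one stayed between 89.8 and 178, under 200 on every array. Over 669 genes with 2 probe sets at 500, the hypoxia change had an SD between probe sets of 0.30 in tri-CH1 and 0.26 in wild type. This SD is that of the gap between a gene's 2 probe sets, divided by the square root of 2, so it describes a single probe set. It is the only internal measure of spread, and covers error between probe sets and not between cultures.

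Of the other subunit genes, the single Epas1 probe set read 18.2 in tri-CH1 hypoxia, 41.5 in tri-CH1 normoxia, 109 in wild-type hypoxia and 129 in wild-type normoxia. All 4 lay under 200, so no change with oxygen or genotype is given for Epas1, which is best known from endothelial and other specialised cells. The brighter Arnt probe set read 337 and 403 in tri-CH1 hypoxia and normoxia, against 353 and 377 in wild-type hypoxia and normoxia. Arnt, the gene of the constitutive partner, was thus lower in hypoxia by 0.26 on the log2 scale in tri-CH1 and by 0.10 in wild type, both within the SD between probe sets, and it never reached 500. Its other probe set lay between 95.6 and 140. The Arnt2 probe sets, both designed from the same sequence, read between 5.40 and 21.0 on the 4 arrays.

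Egln1, the gene of PHD2, the main prolyl hydroxylase acting on HIF-1α and itself a HIF target, rose in both genotypes. Its brightest probe set read 2955 in tri-CH1 hypoxia against 329 in tri-CH1 normoxia, and 2654 in wild-type hypoxia against 324 in wild-type normoxia. Both hypoxia values were far above both normoxia values, which lay close together. The fold was 8.99 in tri-CH1 and 8.20 in wild type, ranks 5 of 4358 and 12 of 4125. A further Egln1 probe set, designed from the same sequence, read 2874 and 442 in tri-CH1 hypoxia and normoxia, against 1746 and 532 in wild-type hypoxia and normoxia. It also showed a rise in each genotype, of 6.51-fold in tri-CH1 and 3.28-fold in wild type. The probe sets therefore gave different answers on genotype: the change in tri-CH1 minus that in wild type was 0.13 by one and 0.99 by the other. Their gap of 1.32 log2 units in the wild-type change was reached by 5 of the 669 genes with a pair of probe sets at 500 (0.747%), Egln1 included, while the gap of 0.47 in tri-CH1 was reached by 22.7% of them.

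Egln3, the gene of PHD3, a further HIF-induced hydroxylase, rose in both genotypes, and its normoxia signals lay under 200. Its brightest probe set read 1981 in tri-CH1 hypoxia against 140 in tri-CH1 normoxia, and 3620 in wild-type hypoxia against 170 in wild-type normoxia. The rise was at least 9.91-fold in tri-CH1 and at least 18.1-fold in wild type, rank 4 of all genes counted in each genotype with the floor of 200. The other Egln3 probe set, designed from the same sequence, read 398 and 12.2 in tri-CH1 hypoxia and normoxia, against 1022 and 31.1 in wild-type hypoxia and normoxia. It reached 500 in wild-type hypoxia alone, where it was at least 5.11-fold above normoxia. In tri-CH1 it was at least 1.99-fold above normoxia, with both signals under 500, so it gave no call there. With the floor, the probe sets differed by 2.32 log2 units in the tri-CH1 change and by 1.82 in the wild-type change. Among 669 genes with 2 probe sets at 500, only Egln3 itself had gaps that large. Both probe sets read lower in tri-CH1 hypoxia than in wild-type hypoxia, by 0.87 and 1.36 on the log2 scale. The normoxia signals are too low to rank the rises: the change in tri-CH1 minus that in wild type was -0.87 and -1.36 with the floor, but -0.58 and -0.01 without it.

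Egln2, the gene of PHD1, which is not known as a HIF target, had signals of 831 in tri-CH1 hypoxia, 1028 in tri-CH1 normoxia, 853 in wild-type hypoxia and 651 in wild-type normoxia. It was the only one of the hydroxylase genes at 500 or above on all 4 arrays. The hypoxia change had opposite signs, -0.31 on the log2 scale in tri-CH1 and 0.39 in wild type, with neither at 2-fold. The hypoxia arrays of the genotypes differed by -0.04 on that scale (tri-CH1 over wild type) and the normoxia arrays by 0.66, and the lowest of the 4 values, wild-type normoxia, came from the array of the other lot.

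Vhl, the gene of the substrate receptor that recognises hydroxylated HIF-α, read 860 in tri-CH1 hypoxia against 452 in tri-CH1 normoxia, and 887 in wild-type hypoxia against 319 in wild-type normoxia. Both hypoxia values were above both normoxia values. Vhl rose 2.78-fold in wild type, rank 70 of 4125, and was 1.90-fold higher in tri-CH1 hypoxia than in tri-CH1 normoxia, rank 158 of 4358 and just short of the limit. The hypoxia values of the genotypes differed by -0.05 on the log2 scale and the normoxia values by 0.50. Both normoxia values were under 500, so Vhl was not counted in the normoxia genotype comparison. The lower of them, wild-type normoxia, came from the array of the other lot. Vhl has only 1 probe set here, which leaves no check on these values from another probe set.

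**Figure D2:**
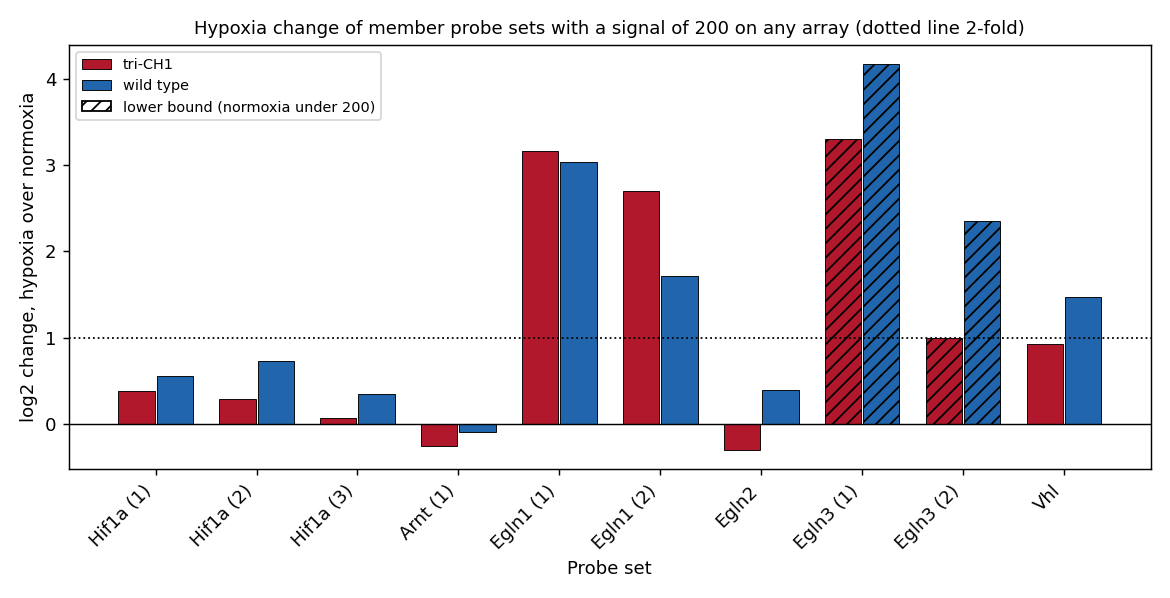
Bars show the log2 change, hypoxia over normoxia (vertical), for the 10 member probe sets with a signal of 200 or more on any array (horizontal), in tri-CH1 (red, left) and wild type (blue, right). Hatched bars are lower bounds because the normoxia signal was under 200, and the dotted line is 2-fold. All bars of Egln1 pass the line, while Vhl passes it in wild type at 1.47 and not in tri-CH1 at 0.93.

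Counted by gene, 2 of the 5 members bright enough to count rose in tri-CH1 hypoxia (Egln1 and Egln3), where 3.19% of 4358 genes rose, and 3 of 5 rose in wild type (Egln1, Egln3 and Vhl), where 3.05% of 4125 genes rose. None fell in tri-CH1 or in wild type, where 0.987% and 1.19% of all genes fell. The median log2 change of these 5 members was 0.93 in tri-CH1, against -0.04 over all genes counted there, and 1.47 in wild type, against -0.06 over all. Egln3, Egln1 and Vhl had the 3 largest hypoxia changes in each genotype, and Hif1a and the hydroxylase gene Egln2 the 2 smallest. By brightest probe set, Egln1, Egln3 and Vhl were under 500 on both normoxia arrays, so they were counted only through their hypoxia signals. The same limit left Arnt uncounted, at 337 to 403 on the 4 arrays. The counts and medians of the members are thus partly set by the limit of 500. Since the genes were also chosen with earlier results of these data known, these counts and medians are a description.

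**Figure D3:**
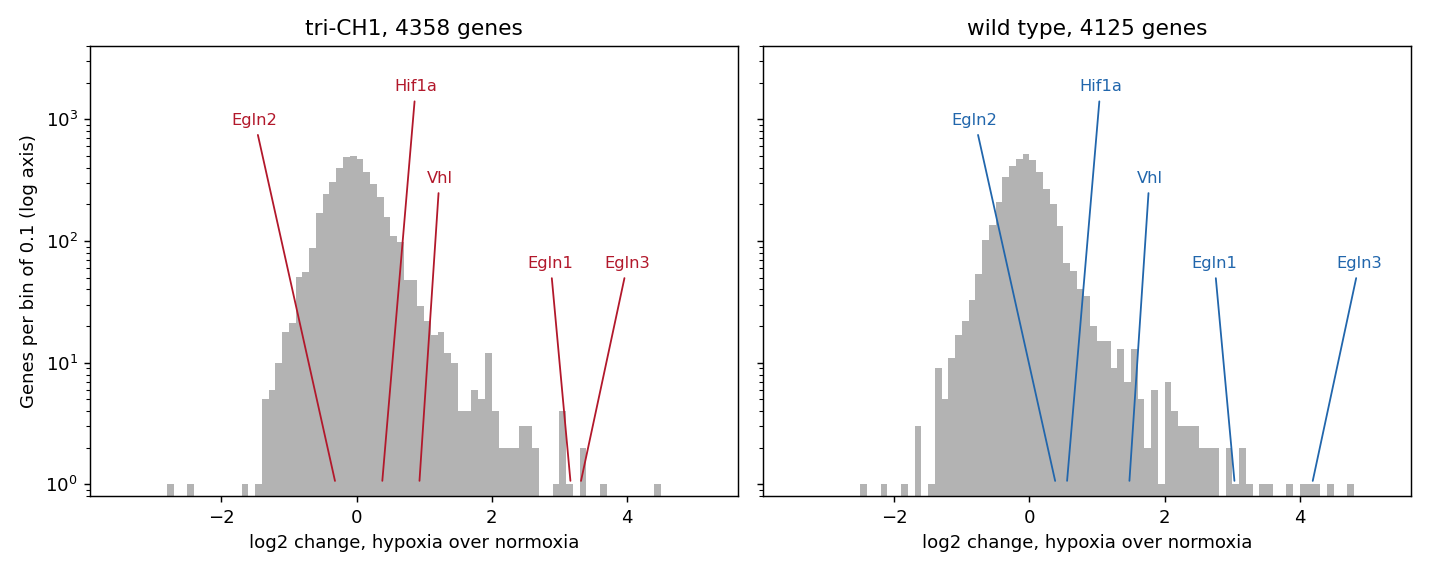
Grey bars count genes (log axis) by their log2 change, hypoxia over normoxia, in tri-CH1 (left, 4358 genes) and wild type (right, 4125 genes), in bins of 0.1. Lines point from each named member to its own change on the horizontal axis. Egln1 and Egln3 lie far to the right in both panels, at 3.17 and 3.31 in tri-CH1 and 3.04 and 4.18 in wild type, while Egln2 lies left of 0 in tri-CH1 and right of 0 in wild type.

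Between genotypes, no member bright enough to count differed by 2-fold at either oxygen level when read by its brightest probe set. In hypoxia 3.76% of 4233 genes were higher and 3.31% were lower in tri-CH1 than in wild type, and the 5 members counted ranged from -0.87 (Egln3) to 0.15 (Egln1) on the log2 scale. In normoxia 3.16% of 4333 genes were higher and 3.48% lower, and the 2 members counted there, Egln2 and Hif1a, differed by 0.66 and 0.25. The dimmer Egln3 probe set was 2.57-fold lower in tri-CH1 hypoxia than in wild-type hypoxia. The tri-CH1 hypoxia change minus the wild-type change, by brightest probe set, was -0.70 for Egln2, -0.55 for Vhl, -0.18 for Hif1a and 0.13 for Egln1. For Egln3 the floor sets both normoxia values, so its -0.87 only restates the difference between the hypoxia arrays, and it was -0.58 without the floor. The difference was below 0 for 4 of the 5 members and for 47.0% of all 4645 genes. By brightest probe set no member had a difference of 2-fold, which 1.77% of all genes had upward and 1.46% downward. The dimmer Egln3 probe set did pass 2-fold, at -1.36 with the floor, but was at -0.01 without it. For the difference between the changes, the SD between probe sets, computed as above, was 0.37. The probe sets of Hif1a and Egln1 fell on both sides of that size: -0.18, -0.45 and -0.28 for Hif1a, and 0.13 and 0.99 for Egln1. The wild-type normoxia array enters this difference for every member.

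Promoter sequences were examined because Egln1, Egln3 and Vhl had higher signals together in hypoxia. RefSeq promoter windows (GRCm38.p6) were held for 7 of the 8 genes, and Epas1 had none. The 250 bases before each start were searched on both strands for the HIF core letters ACGTG and GCGTG, of which ACGTG also overlaps the E-box CACGTG. Of 32851 promoter windows of that length, 16.6% held ACGTG, 28.2% held GCGTG and 38.6% held at least 1 of them, while 6.02% held CACGTG. The windows of the hydroxylase genes and Vhl are shown 5′ to 3′ on the gene's strand, with matches in capitals. Egln1 lies on the minus strand at chr8:124949255-124949504, Egln3 on the minus strand at chr12:54203875-54204124, Egln2 on the minus strand at chr7:27166803-27167052 and Vhl on the plus strand at chr6:113623744-113623993.
Egln1: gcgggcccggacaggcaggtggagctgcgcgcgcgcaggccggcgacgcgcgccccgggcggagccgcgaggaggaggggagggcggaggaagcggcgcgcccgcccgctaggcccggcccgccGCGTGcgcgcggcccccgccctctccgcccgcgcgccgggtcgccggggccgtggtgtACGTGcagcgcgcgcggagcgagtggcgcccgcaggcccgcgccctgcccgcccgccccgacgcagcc
Egln3: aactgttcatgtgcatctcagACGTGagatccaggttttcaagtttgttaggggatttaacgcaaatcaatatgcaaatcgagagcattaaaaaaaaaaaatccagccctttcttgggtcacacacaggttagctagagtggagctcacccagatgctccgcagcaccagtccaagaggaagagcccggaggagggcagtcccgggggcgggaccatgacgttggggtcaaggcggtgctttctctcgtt
Egln2: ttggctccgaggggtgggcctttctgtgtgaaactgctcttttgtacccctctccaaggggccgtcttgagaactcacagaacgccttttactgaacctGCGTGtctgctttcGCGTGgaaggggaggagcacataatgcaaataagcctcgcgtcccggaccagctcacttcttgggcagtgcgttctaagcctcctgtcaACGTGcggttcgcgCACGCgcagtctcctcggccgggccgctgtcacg
Vhl: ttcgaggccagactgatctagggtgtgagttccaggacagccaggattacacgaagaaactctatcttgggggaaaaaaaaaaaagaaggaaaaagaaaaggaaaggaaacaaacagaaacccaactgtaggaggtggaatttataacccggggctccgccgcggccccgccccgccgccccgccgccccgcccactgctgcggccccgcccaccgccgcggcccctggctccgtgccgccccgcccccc

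The Egln1 window held 2 matches, GCGTG starting 126 bases and ACGTG starting 68 bases before the start, and the Egln3 window held 1, ACGTG at 229 bases. The Egln2 window held 4 matches although Egln2 stayed under 2-fold in both genotypes, and a further Egln2 start had 1. The Vhl window had no match, although Vhl rose in wild type. In Hif1a, ACGTG began 134 and 70 bases before the start, the farther within a CACGTG, which also gives the reverse-strand match at 135. Arnt had 1 GCGTG at 29 bases, and Arnt2 had no match. A match here is a description of letters and not a binding site, and the number of matches did not follow the size of the change among these genes.

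The genes whose 4 signals were most like each member's were sought among the other genes at 500 on at least 1 array, as the smallest Euclidean distance between log2 signals after the floor and after each gene's own mean was taken off. Over only 4 arrays such likeness is a description. For Egln1 the nearest gene was Pdk1, a kinase that restrains pyruvate dehydrogenase, at a distance of 0.15. Pdk1 read 1887 and 220 in tri-CH1 hypoxia and normoxia, against 1539 and 186 in wild-type hypoxia and normoxia. The adenylate kinase gene Ak4 and the lactate transporter gene Slc16a3 followed at 0.56 and 0.57. For Egln3 the nearest was Ndrg1, a stress-response gene, at 0.16, with 4740 and 460 in tri-CH1 hypoxia and normoxia, against 8843 and 535 in wild-type hypoxia and normoxia. The glucose transporter gene Slc2a3 followed at 0.33 and Ak4 at 0.53. For Vhl they were Medag at 0.15, the Wnt receptor gene Fzd1 at 0.16 and Kctd9 at 0.23. Their higher signals in hypoxia in both genotypes follow from the choice by likeness to Vhl. Hif1a and Egln2, whose changes were small, had close neighbours: Fam133b, Prmt2 and Galm at 0.05 to 0.08 for Hif1a, and Acbd6, D230025D16Rik and Ilkap at 0.07 for Egln2.

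**Figure D4:**
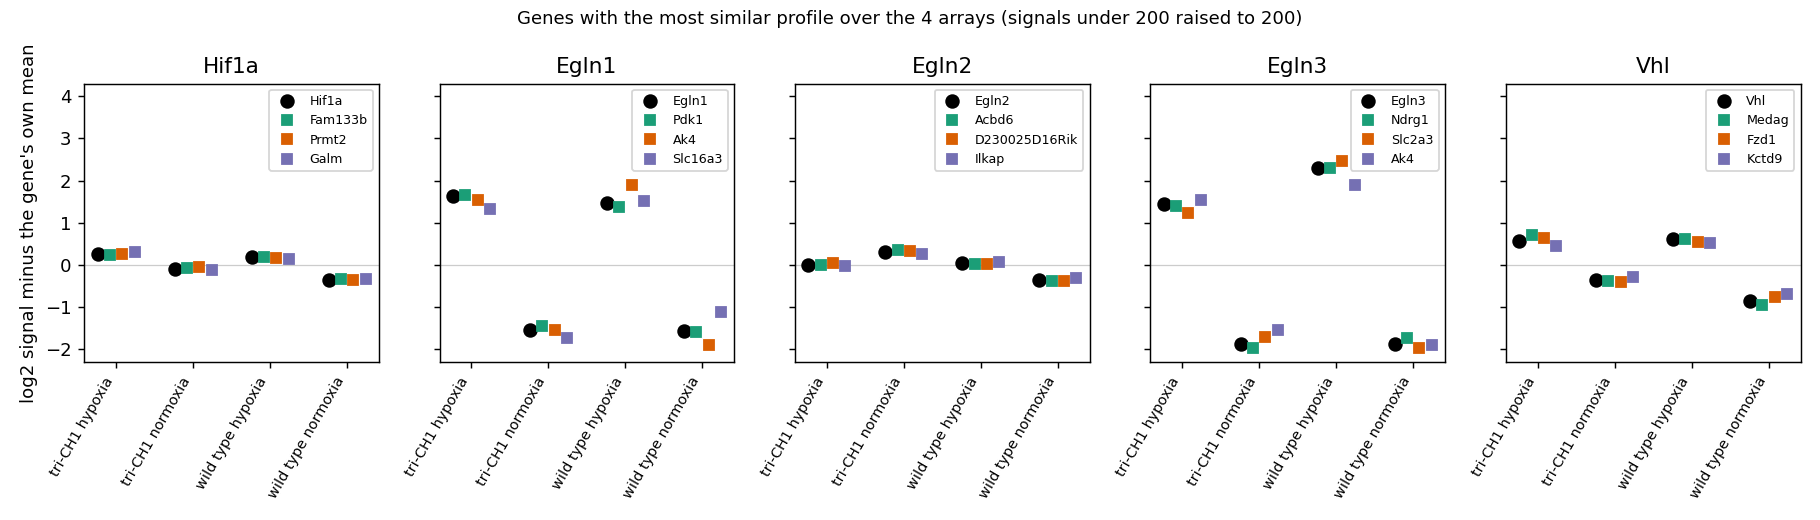
Each panel shows 1 member (black circles) and the 3 genes most like it (coloured squares), as log2 signal minus the gene's own mean (vertical) on the 4 arrays (horizontal). Signals under 200 were raised to 200. Egln1 sits level with Pdk1 in both genotypes, while Egln3 and Ndrg1 share a higher value in wild-type hypoxia than in tri-CH1 hypoxia.

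Genes of the degradation machinery were read against the same background. Of 10 genes of the VHL ubiquitin ligase and the NEDD8 system that activates it, all reached 500 on at least 1 array, and none of the 9 counted in tri-CH1 or the 10 counted in wild type passed 2-fold with oxygen. Over all genes 3.19% rose and 0.987% fell in tri-CH1, and 3.05% rose and 1.19% fell in wild type, so a count of 0 among so few genes is near the background. The median log2 changes of the list were -0.02 in tri-CH1 and -0.18 in wild type, against -0.04 and -0.06 over all genes counted. Elob, an elongin gene of the VHL complex, read 3870 and 3921 in tri-CH1 hypoxia and normoxia, against 4262 and 4545 in wild-type hypoxia and normoxia. Eloc, the elongin that contacts VHL, read 4072 and 4384 in tri-CH1 hypoxia and normoxia, against 6112 and 6354 in wild-type hypoxia and normoxia. The scaffold gene Cul2 read 679 and 707 in tri-CH1 hypoxia and normoxia, against 602 and 753 in wild-type hypoxia and normoxia. Nedd8, the ubiquitin-like activator of cullins, had opposite changes, 0.82 in tri-CH1 and -0.47 in wild type, from 4910 and 2781 in tri-CH1 hypoxia and normoxia and 3535 and 4893 in wild-type hypoxia and normoxia. Read by brightest probe sets, it was the only gene of this list with a difference of 2-fold between the changes, at 1.29 on the log2 scale, and it has only 1 probe set here. Over all 4645 genes, 1.77% had such a difference upward and 1.46% downward. A dimmer Eloc probe set was 2.18-fold lower in tri-CH1 hypoxia, at 295 against 643 in wild-type hypoxia, whereas the brightest one differed by -0.59 on the log2 scale. That dimmer probe set also had a change in tri-CH1 minus that in wild type of -1.02, against -0.05 by the brightest. The remaining Eloc probe sets, under 500 on every array, gave 0.64 and 0.54 with the floor, of the opposite sign.

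Of 17 other genes that act on HIF stability or on the hydroxylases, 11 reached 500 on at least 1 array, and none of the 11 counted in tri-CH1 or the 9 counted in wild type passed 2-fold with oxygen, again near the 3.19% and 0.987% of all genes that rose and fell in tri-CH1 and the 3.05% and 1.19% in wild type. The median log2 changes were -0.10 and -0.13. Siah2, a ubiquitin ligase gene for the hydroxylases, never reached 500, at 350 and 334 in tri-CH1 hypoxia and normoxia and 241 and 303 in wild-type hypoxia and normoxia. Its other probe set read 390 and 120 in tri-CH1 hypoxia and normoxia, against 353 and 270 in wild-type hypoxia and normoxia. Hif3a, the gene of a further α subunit that can limit HIF, read 510 and 535 in tri-CH1 hypoxia and normoxia, against 355 and 312 in wild-type hypoxia and normoxia, with log2 changes of -0.07 and 0.18 with oxygen. Between genotypes Hif3a differed by 0.53 in hypoxia and 0.78 in normoxia on the log2 scale. A further Hif3a probe set, under 500 on every array, differed by 0.54 in hypoxia and 0.13 in normoxia, and the last stayed at or under 12.4. Mdm2, a p53-directed ubiquitin ligase gene also linked to HIF-1α, was the 1 called gene of this list, in the hypoxia genotype comparison. There 10 genes of the list were counted, and 3.31% of all 4233 genes were lower in tri-CH1, so a count of 1 is of little weight. It was 2.07-fold lower in tri-CH1 hypoxia, at 850 against 1754 in wild-type hypoxia, and differed by -0.58 on the log2 scale in normoxia. Its other probe set differed by -1.33 in hypoxia and -1.01 in normoxia. Hif1an, the asparaginyl hydroxylase that blocks CH1 binding, and Rbx1, the ligase's RING subunit, were looked for. No probe set was named with either symbol alone, so neither has a value here.

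Among 10 other bHLH-PAS genes, the family that HIF and ARNT belong to, 2 reached 500. Ahr, the dioxin receptor gene and another partner of ARNT, read 745 in tri-CH1 hypoxia against 12.0 in wild-type hypoxia, and 837 in tri-CH1 normoxia against 39.4 in wild-type normoxia. It was at least 3.73-fold higher in tri-CH1 in hypoxia and at least 4.18-fold higher in normoxia, with a log2 change of -0.17 with oxygen in tri-CH1. Only 2 genes of this list were counted between genotypes, and over all genes 3.76% were higher in tri-CH1 in hypoxia and 3.16% in normoxia. The other Ahr probe set read 323 and 384 in tri-CH1 hypoxia and normoxia, against 186 and 127 in wild-type hypoxia and normoxia. The clock gene Arntl stayed under 2-fold in every comparison, at 535 and 398 in tri-CH1 hypoxia and normoxia and 1050 and 581 in wild-type hypoxia and normoxia.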

How the data were processed

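RNA of 4 cultures was measured on 4 arrays. The deposited values are linear intensity signals, 1 per probe set. Per the labels, the authors obtained them with the Affymetrix statistical algorithm and scaled every array to a target of 500. The sources used here name no software version. Gene names came from the platform annotation: 20380 had 1 symbol and 691 several, and all 15 member probe sets matched RefSeq by gene number and symbol. Log2 ratios, the floor of 200, the minimum of 500 and the 2-fold limit are as in the text; the call rule was tested on simulated data. With 1 array per group no test was run. Alternatives were floors of 100, 400 and none, minimums of 250 and 1000, quantile normalization, cyclic loess, median scaling, the mean over probe sets and plain _at probe sets only. Named were all members, list genes called in any comparison, 7 textbook partners (Hif1an and Rbx1 among them, without values), and the 3 nearest genes per member. The dimmer Eloc probe set that passed 2-fold and Arntl were singled out after their values were seen. Members and lists were chosen with earlier results of these data known. Python 3.11.15, numpy 2.4.6, pandas 2.3.3, matplotlib 3.10.9, R 4.3.3 and limma 3.58.1 were used.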

Additional observations from a re-analysis of the deposited data

Results flagged for a closer look

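With 1 array per group, these effects had opposite signs in the groups compared and the difference was not tested. Egln2 had a hypoxia change of -0.31 in tri-CH1 and 0.39 in wild type, a difference of -0.70 on the log2 scale. The same -0.70 separates its genotype difference in hypoxia, -0.04, from that in normoxia, 0.66. The genotype difference of Vhl was -0.05 in hypoxia and 0.50 in normoxia, which is -0.55 between them. Both normoxia signals of Vhl were under 500. Nedd8 had hypoxia changes of 0.82 in tri-CH1 and -0.47 in wild type, a difference of 1.29, and the same 1.29 between its genotype differences of 0.47 in hypoxia and -0.82 in normoxia. Mdm2 had hypoxia changes of -0.11 in tri-CH1 and 0.35 in wild type, a difference of -0.47. Hif3a had hypoxia changes of -0.07 in tri-CH1 and 0.18 in wild type, a difference of -0.25. The genotype difference of Cul2 was 0.17 in hypoxia and -0.09 in normoxia, a difference of 0.26. Against an SD of 0.37 between probe sets, the differences of Egln2, Vhl, Nedd8 and Mdm2 were larger in size and those of Hif3a and Cul2 smaller. Other probe sets gave -0.32 for Mdm2, and 0.41 for Hif3a, of the opposite sign.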

How the results depend on the processing

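Of 100 counts of members higher or lower under the 10 alternatives, 98 kept within 1.5 times the reported count. The exceptions came with the mean over probe sets, where the number of members lower in tri-CH1 hypoxia and the number with a 2-fold smaller hypoxia change in tri-CH1 were each 1 (Egln3, at -1.12 on the log2 scale for both), against 0. Most reported counts were 0, so most of these matches were of 0 with 0. The counts above 0 were the 2 members that rose in tri-CH1 and the 3 in wild type. Of these, only the wild-type count changed, to 2 with a minimum of 1000. Egln1 and Egln3 rose in both genotypes under every alternative: Egln1 between 2.89 and 3.27 in tri-CH1 and between 2.38 and 3.10 in wild type, and Egln3 between 2.15 and 3.83 and between 3.18 and 4.41. Vhl was between 0.93 and 0.99 in tri-CH1, and between 1.15 and 1.52 in wild type, where a minimum of 1000 left it uncounted. Among single genes, 499 of 535 values moved by less than the SD between probe sets, 36 by more, and no called value changed sign. The minimums of 250 and 1000 cannot alter a log2 value, so the 55 values under each were the same by construction. Likewise, the other floors can move only genes with a signal under 400. Hif1a in tri-CH1 hypoxia turned to -0.07 with the mean over probe sets, which takes in a probe set under 200 on every array. Median scaling put the median difference of all genes at 0.18 and gave Hif1a -0.03, Vhl -0.41, Egln2 -0.56 and Egln3 -0.95. A floor of 400 left Ahr at 0.90 in hypoxia. Nedd8 passed 2-fold in normoxia with median scaling, at -1.04. No paired analysis was possible because each group holds 1 array. Scaled background of 139 to 393 limits what signals under 200 can show, Epas1 and Arnt2 above all.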
